A study of Mus musculus with 6 samples.

Results

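The genes described here encode the neuregulins and other ligands of the epidermal growth factor (EGF) family together with their ErbB receptors. They were taken as 10 gene symbols, the ligands *Nrg1*, *Nrg2*, *Nrg4*, *Hbegf*, *Btc* and *Areg* and the receptors *Erbb2*, *Erbb3*, *Erbb4* and *Egfr*, and a gene was a member where its symbol equalled a row name of the count table. Of these, 9 matched 1 of the 13809 rows, and *Areg* was not analysed here. RNA was sequenced from mouse hearts at embryonic day 18.5, in 3 wild-type (WT) and 3 *Pkm1* knockout (KO) libraries, to ask how the loss of this enzyme changes gene expression in the fetal heart. The results text of the study gives the sampled tissue as the ventricles, and the labels give only heart. The KO allele is a germline deletion made by CRISPR/Cas9 in the exon that only *Pkm1*, the muscle isoform of pyruvate kinase, uses, so it is present in every cell type, and no agent was given to either group. WT and KO embryos came from intercrosses of heterozygotes, and whether a library came from 1 heart or from pooled hearts is not given in the sources used here.

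In the developing heart, neuregulin 1 is made by the endocardium, the endothelial lining of the chambers, and acts on the adjacent cardiomyocytes. It binds ErbB4 or ErbB3, and either receptor then pairs with ErbB2, which binds no ligand of its own but is the preferred partner. Mice that lack *Nrg1*, *Erbb2* or *Erbb4* fail to form trabeculae, the inner muscle ridges of the ventricle, and the same receptors drive cardiomyocyte growth and division around birth. HB-EGF and betacellulin bind EGFR and ErbB4, and HB-EGF is needed for normal valve shape through EGFR.

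At E18.5 the receptors *Erbb2* and *Erbb4* were far more abundant per length than the neuregulins, and neither differed between WT and KO hearts by edgeR's quasi-likelihood test. *Nrg1*, *Btc* and *Erbb3* rose in KO hearts by 1.51-fold, 1.38-fold and 1.25-fold. *Hbegf* fell by 1.36-fold. *Nrg2*, *Nrg4*, *Erbb2*, *Erbb4* and *Egfr* did not pass an adjusted p of 0.05. All 9 genes passed the filter on low counts, which removed only 5 of the 13809 rows and left 13804 genes for the test. The 3 of 9 members called higher (33.3%) stand against 14.6% of all tested genes called higher, and the 1 of 9 called lower (11.1%) against 15.7% called lower. The median log2 fold change was -0.05 over the 9 members and 0.00 over all tested genes. Counting either direction, 4 of 9 members were called, against 30.3% of all tested genes. With 9 genes, these shares are a description only.

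**Figure D1:**
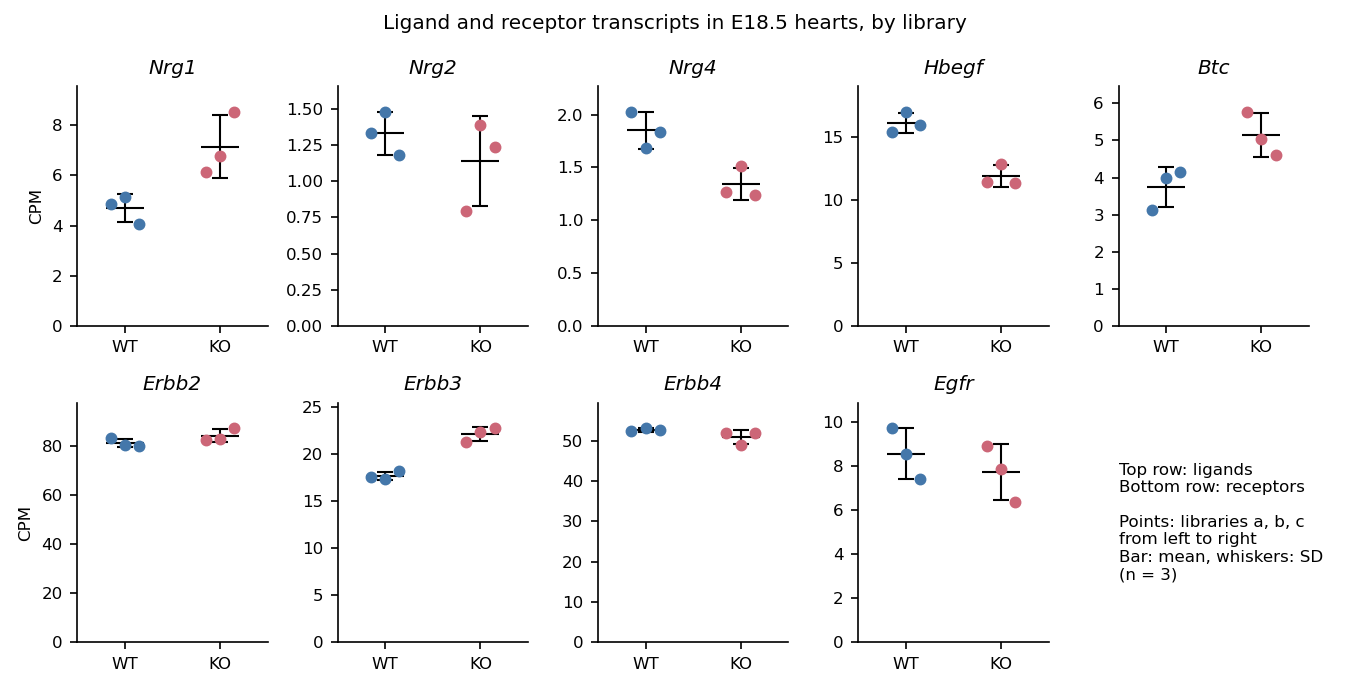
Transcript level of each ligand (top row) and receptor (bottom row) in CPM (counts scaled to library size, vertical axis from 0) for WT and KO hearts. Each point is 1 library, the bar is the mean and the whiskers are the SD (n = 3). *Nrg1*, *Btc* and *Erbb3* lay higher and *Hbegf*, *Nrg4* and *Erbb4* lower in all 3 KO libraries than in any WT library. The groups were likewise without overlap for 42.4% of all tested genes, and *Nrg4* and *Erbb4* were not called.

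WT libraries held 15597756 to 19875546 counts and KO libraries 15567624 to 18577404. At these depths 3 counts, taken as the limit of detection for counting error only, correspond to 0.153 to 0.197 CPM. The columns give the genotype without a replicate number, so the libraries were lettered a, b and c within WT and within KO by column order. Within the WT group, WT c stood apart, with a chi-square per degree of freedom of 3.24 and 3.76 against the other WT libraries and 1.56 between WT a and WT b. The KO pairs lay between 1.62 and 1.88. Without WT c, *Nrg1*, *Btc*, *Erbb3* and *Hbegf* were again the members that edgeR's test called, with log2 fold changes of 0.51, 0.53, 0.34 and -0.46. *Pkm*, which both pyruvate kinase isoforms share, fell from 1318 ± 41.1 CPM (SD, n = 3) to 542 ± 10.1 CPM (SD, n = 3). *Xist*, which the inactive X chromosome of female cells transcribes, measured 5.26 ± 0.500 CPM in WT against 2285 ± 47.6 CPM in KO (SD, n = 3), while the Y-linked gene *Ddx3y* measured 93.5 ± 6.45 CPM (SD, n = 3) in WT libraries and had 0 counts in each KO library. All WT libraries thus carried male and all KO libraries female transcripts, and genotype and sex cannot be told apart in any comparison. No member lies on X or Y. Markers of cardiomyocytes, the labelled tissue's main cell type, were abundant. Over 10 genes, their summed levels were 131225 to 135061 CPM in WT and 123377 to 124781 CPM in KO. Of these genes, 8 were called lower and 1 higher, against 15.7% and 14.6% of all tested genes. In bulk tissue, fewer cells of a type and less RNA per cell cannot be told apart.

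The study also examined NFY and Sp transcription factors in these hearts, so the letters of their motifs were searched in the promoters of the members, from 250 bases before to 50 bases after the start in RefSeq's annotation of GRCm38.p6. The motifs were CCAAT and GGGCGG, each also read on the other strand as ATTGG and CCGCCC. RefSeq promoters were at hand for 6 of the 10 members (*Nrg4*, *Btc*, *Areg*, *Erbb2*, *Erbb4* and *Egfr*). Of all 32851 promoters of this length, 37.4% held CCAAT and 35.7% GGGCGG on either strand. The promoters of *Btc*, the only member with a changed level among these 6, of *Erbb2*, the most abundant member, and of *Erbb4*, its ligand-binding partner, are shown 5′ to 3′ on the gene's strand, with any match to either motif in capitals. They lie at chr5:91402945-91403244 (minus strand), chr11:98412234-98412533 (plus strand) and chr1:69108010-69108309 (minus strand).
Btc: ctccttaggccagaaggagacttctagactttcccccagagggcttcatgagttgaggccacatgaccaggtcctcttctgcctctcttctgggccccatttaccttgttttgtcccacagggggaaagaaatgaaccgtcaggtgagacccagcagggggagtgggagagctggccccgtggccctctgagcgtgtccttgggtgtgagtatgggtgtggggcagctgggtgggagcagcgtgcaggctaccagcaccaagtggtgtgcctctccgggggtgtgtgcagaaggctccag
Erbb2: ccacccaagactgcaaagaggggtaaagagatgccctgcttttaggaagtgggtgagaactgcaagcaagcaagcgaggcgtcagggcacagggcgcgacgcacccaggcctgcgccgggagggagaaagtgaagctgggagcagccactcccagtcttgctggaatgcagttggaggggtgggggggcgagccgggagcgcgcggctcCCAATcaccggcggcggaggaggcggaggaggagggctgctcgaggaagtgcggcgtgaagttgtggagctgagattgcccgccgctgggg
Erbb4: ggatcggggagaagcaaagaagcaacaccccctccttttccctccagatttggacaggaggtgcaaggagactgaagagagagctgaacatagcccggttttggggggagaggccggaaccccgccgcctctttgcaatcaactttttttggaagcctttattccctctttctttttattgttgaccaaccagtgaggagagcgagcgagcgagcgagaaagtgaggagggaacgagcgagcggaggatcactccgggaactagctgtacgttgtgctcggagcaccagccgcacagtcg
The *Erbb2* promoter held 1 CCAAT on the plus strand, 41 bases before the start. The *Areg* promoter held GGGCGG 52 bases before the start and its reverse complement 38 bases after it, and the *Egfr* promoter held the reverse complement 9 bases before the start. No match to these letters lay in the windows of *Btc*, *Erbb4* and *Nrg4*, which says nothing about binding of the factors there.

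By GRCm38 coordinates with the GENCODE M21 annotation, all 10 members are protein-coding genes. *Nrg1* spans chr8:31814551-32884029 on the minus strand and has 18 annotated transcripts, which encode the secreted and membrane-bound neuregulin types that gene counts do not separate. *Nrg2* (chr18:36017652-36197380) and *Hbegf* (chr18:36504927-36515805) lie on the minus strand of the same chromosome. *Nrg4* lies at chr9:55220222-55326844 on the minus strand and *Btc* at chr5:91357261-91402994 on the minus strand. *Areg* lies at chr5:91139599-91148432 on the plus strand. Among the receptors, *Erbb2* spans chr11:98412470-98437716 and *Egfr* chr11:16752203-16918158, both on the plus strand. *Erbb3* (chr10:128567523-128589652, 1 transcript) and *Erbb4* (chr1:68032186-69108059) lie on the minus strand. Exons of *Nrg4* share 368 bp with *Fbxo22* on the opposite strand, those of *Nrg1* share 482 bp with the noncoding gene *Gm26578*, and those of *Erbb2* share 9 bp with *Mien1*. The strand setting of the authors' counting is not given in the sources used here, so reads in these stretches, and the *Nrg4* count in particular, are uncertain.

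Levels of different genes were compared as CPM per kilobase of annotated exon. In WT hearts *Erbb2* stood highest at 15.6 ± 0.324 CPM per kb (SD, n = 3), followed by *Erbb4* at 4.26 ± 0.0319, *Hbegf* at 3.33 ± 0.168 and *Erbb3* at 2.94 ± 0.0738 CPM per kb (SD, n = 3). None of these neighbours overlapped between libraries. *Btc* (0.829 ± 0.120 CPM per kb), *Egfr* (0.757 ± 0.102), *Nrg1* (0.454 ± 0.0541), *Nrg2* (0.424 ± 0.0474) and *Nrg4* (0.305 ± 0.0283) followed (SD, n = 3 each). Within this lower group, *Btc* and *Egfr* overlapped between libraries, as did *Nrg1* and *Nrg2*, so the order of either pair is not resolved even at this choice of length. In KO hearts *Erbb3* (3.68 ± 0.125 CPM per kb) stood above *Hbegf* (2.46 ± 0.179), and *Nrg1* (0.690 ± 0.120) overlapped with *Egfr* (0.682 ± 0.112; SD, n = 3 each). The order depends on the length used. With the longest transcript in place of all exons, *Hbegf* stood at 5.57 CPM per kb in WT, above *Erbb4* at 4.37 CPM per kb, its annotated exons covering 4834 bp and its longest transcript 2890 bp. In KO hearts the order of *Hbegf* and *Erbb3* also turned, to 4.11 and 3.68 CPM per kb. *Nrg4* moved in WT from the lowest place to 0.883 CPM per kb, beside *Nrg1* at 0.867 and *Egfr* at 0.840 CPM per kb, so the order below *Erbb3* is not resolved.

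*Nrg1*, the endocardial ligand, was at 4.86, 5.15 and 4.07 CPM in WT a to c and at 6.15, 6.76 and 8.53 CPM in KO a to c. Every KO library lay above every WT library, and KO c was the highest by a margin of 1.78 CPM over the next. The means were 4.70 ± 0.559 CPM in WT and 7.15 ± 1.24 CPM in KO (SD, n = 3), and *Nrg1* rested on 62 to 101 counts per WT library and 107 to 159 per KO library. The log2 fold change was 0.60 (standard error 0.148, 95% interval 0.29 to 0.90, adjusted p = 0.00294 by edgeR's quasi-likelihood test, Benjamini-Hochberg adjusted over all tested genes). Without KO c it was 0.44, with an adjusted p of 0.0480 in the same edgeR test. At its mean level *Nrg1* stood at percentile 22.6 of the tested genes.

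Markers of the endothelium and endocardium, the known source of *Nrg1*, did not move together. Of 10 such genes, 3 were called lower, namely the junction genes *Pecam1* (log2 fold change -0.14) and *Cdh5* (-0.22) and the receptor gene *Tie1* (-0.12), and 1 was called higher, *Egfl7* (0.55), which encodes a protein that endothelial cells secrete. Over all tested genes, 15.7% were called lower and 14.6% higher. Without overlap between the groups, 3 of the 10 genes lay lower and 4 higher in KO, against 21.4% and 21.0% of all tested genes. The median log2 fold change of the list was -0.03. The summed level of the 10 genes was 1304 to 1309 CPM in WT and 1273 to 1291 CPM in KO, and none was at 0. The endocardial markers *Npr3* and *Nfatc1* had log2 fold changes of 0.11 and -0.11 with adjusted p of 0.0554 and 0.149 (edgeR's quasi-likelihood test). The part of these cells in the *Nrg1* value was not tested.

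Over the 6 libraries, the genes whose log2 CPM followed *Nrg1* most closely among the 13507 genes that averaged 1 CPM or more were *Gm12070* (Pearson r = 0.995), *Nipsnap1* (0.994), *Tmem181a* (0.994), *H6pd* (0.993) and *Fem1b* (0.993). These values describe 6 libraries in 2 groups that share their genotype and sex. Among the members, r with *Nrg1* over the same 6 libraries ran from -0.84 (*Nrg4*) to 0.87 (*Erbb3*).

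*Nrg2*, best known from the nervous system, and *Nrg4*, best known as a factor released by fat, were near the lower end of the tested genes, at percentiles 4.35 and 7.14. *Nrg2*, which binds ErbB3 and ErbB4, was at 1.33, 1.48 and 1.18 CPM in WT a to c and at 0.795, 1.39 and 1.23 CPM in KO a to c. The groups overlapped, and the log2 fold change of -0.25 (standard error 0.291, 95% interval -0.85 to 0.35, adjusted p = 0.555 by edgeR's quasi-likelihood test) rested on 15 to 29 counts per library. At this depth the counts do not tell apart the changes within that interval. *Nrg4*, a ligand of ErbB4 alone, was at 2.03, 1.68 and 1.84 CPM in WT a to c and at 1.27, 1.52 and 1.23 CPM in KO a to c. All 3 KO libraries lay below all 3 WT libraries, yet the log2 fold change of -0.47 did not pass the threshold (standard error 0.249, 95% interval -0.98 to 0.04, adjusted p = 0.158 by edgeR's quasi-likelihood test) at 23 to 35 counts per library.

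*Hbegf*, which encodes heparin-binding EGF-like growth factor, had the highest level per length of the ligand members and fell in KO hearts. It was at 15.4, 17.0 and 15.9 CPM in WT a to c and at 11.4, 12.9 and 11.3 CPM in KO a to c. The lowest WT library lay 2.52 CPM above the highest KO library. The means were 16.1 ± 0.813 CPM and 11.9 ± 0.867 CPM (SD, n = 3), with a log2 fold change of -0.44 (standard error 0.0898, 95% interval -0.63 to -0.26, adjusted p = 4.18e-04 by edgeR's quasi-likelihood test, Benjamini-Hochberg adjusted). When libraries were left out singly, the value ran from -0.50 to -0.40, and the adjusted p of the edgeR test reached at most 0.00598.

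*Hbegf* is known to be transcribed within minutes of growth factor or stress signals, like the early response genes. A list of 22 such genes in the table was lower in KO hearts throughout, with a median log2 fold change of -1.27. All 22 of these genes were called lower, against 15.7% of all tested genes. Their summed level was 2821 to 3051 CPM in WT and 752 to 763 CPM in KO libraries. *Fos*, a subunit of the AP-1 factor, fell from 49.6 ± 0.789 to 3.09 ± 0.961 CPM, and *Egr1*, a zinc finger factor, from 113 ± 9.28 to 18.9 ± 0.479 CPM (SD, n = 3). This list was set up with the fall of these genes already known, so its count is no independent evidence of direction. The part of this difference in the *Hbegf* value was not tested.

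*Btc*, which encodes betacellulin, was at 3.13, 3.98 and 4.14 CPM in WT a to c and at 5.78, 5.05 and 4.62 CPM in KO a to c. The groups did not overlap, but WT c and KO c lay only 0.477 CPM apart. The means were 3.75 ± 0.544 CPM in WT and 5.15 ± 0.586 CPM in KO (SD, n = 3), at 54 to 109 counts per library. The log2 fold change was 0.46 (standard error 0.159, 95% interval 0.13 to 0.79, adjusted p = 0.0293 by edgeR's quasi-likelihood test, Benjamini-Hochberg adjusted). This call was the least firm of the 4. It was lost without WT a (log2 fold change 0.34, adjusted p = 0.137), without KO a (0.36, adjusted p = 0.155) and without KO b (0.47, adjusted p = 0.0583) in the same edgeR test, and with DESeq2's Wald test (adjusted p = 0.0946). DESeq2 called 2 of the 9 members higher and 1 lower, against 9.87% and 11.9% of all tested genes.

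Of the other EGF-family ligands, *Egf* and *Tgfa* had a row, while *Nrg3*, *Ereg* and *Epgn* were not analysed here. *Egf*, which encodes epidermal growth factor, rose from 5.77 ± 0.335 to 7.79 ± 0.853 CPM (SD, n = 3), which is 0.42 on the log2 scale (standard error 0.127, adjusted p = 0.0132 by edgeR's quasi-likelihood test). *Tgfa*, which encodes transforming growth factor alpha, another EGFR ligand, was at 8.25 ± 0.789 and 8.96 ± 0.699 CPM (SD, n = 3), with overlapping groups and an adjusted p of 0.458 in the same edgeR test.

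**Figure D2:**
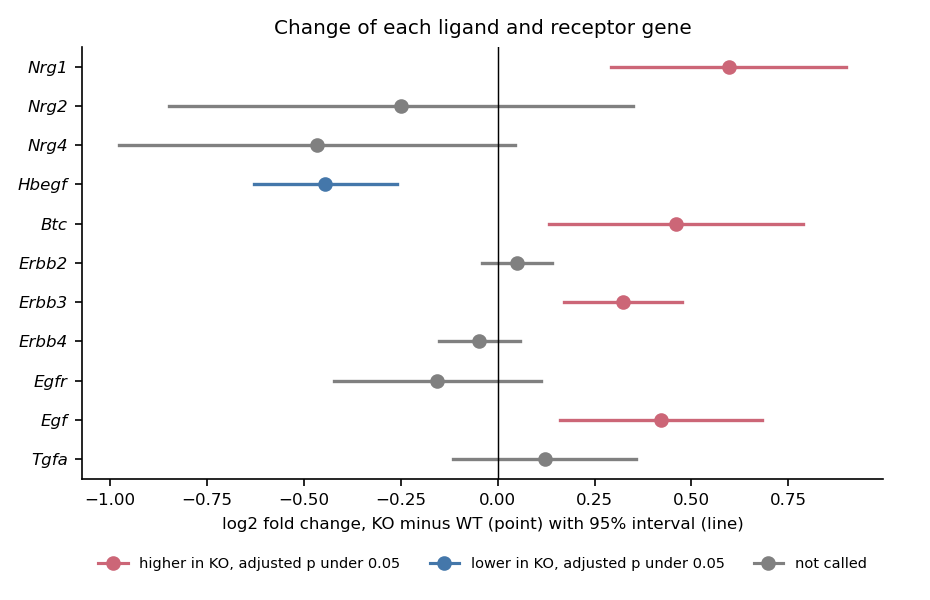
Log2 fold change of KO against WT (horizontal axis, point) with its 95% interval from edgeR's fit (line) for the 9 members and for the related ligands *Egf* and *Tgfa*. The intervals of *Nrg1*, *Btc*, *Erbb3* and *Egf* lie above 0 and that of *Hbegf* below 0, while those of *Erbb2* and *Erbb4* are narrow around 0 and those of *Nrg2* and *Nrg4* are wide.

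*Erbb2*, the shared partner receptor, was at 83.1, 80.4 and 80.0 CPM in WT a to c and at 82.3, 82.7 and 87.2 CPM in KO a to c. The libraries of both groups overlapped. The log2 fold change of 0.05 had a 95% interval of -0.04 to 0.14 (standard error 0.0438, adjusted p = 0.410 by edgeR's quasi-likelihood test), at 1218 to 1624 counts per library.

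*Erbb4*, the neuregulin receptor of cardiomyocytes, was at 52.3, 53.1 and 52.6 CPM in WT a to c and at 51.9, 48.9 and 51.9 CPM in KO a to c. All KO libraries lay below all WT libraries, by a gap of 0.398 CPM. The log2 fold change was -0.05 (standard error 0.0511, 95% interval -0.15 to 0.06, adjusted p = 0.523 by edgeR's quasi-likelihood test). Over the 10 cardiomyocyte markers the median log2 fold change was -0.24, with a range from -0.46 (*Myh6*, a myosin heavy chain) to 0.05 (*Myh7*, another one). The part of these markers in the *Erbb4* value was not tested.

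*Erbb3*, a neuregulin receptor with little kinase activity of its own, was at 17.5, 17.4 and 18.2 CPM in WT a to c and at 21.3, 22.4 and 22.8 CPM in KO a to c. The groups lay 3.10 CPM apart, more than the 1.46 CPM between the lowest and the highest KO library. The means were 17.7 ± 0.444 CPM in WT and 22.1 ± 0.752 CPM in KO (SD, n = 3), and the log2 fold change was 0.32 (standard error 0.0742, 95% interval 0.17 to 0.48, adjusted p = 0.00148 by edgeR's quasi-likelihood test, Benjamini-Hochberg adjusted). When libraries were left out singly, the value ran from 0.30 to 0.35, and the adjusted p of the edgeR test reached at most 0.0119.

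In the developing heart *Erbb3* is known from the mesenchyme of the valves. Of 8 markers of the epicardium, the outer layer of the heart, 3 were called higher (37.5%, against 14.6% of all tested genes) and none lower. The summed level of the 8 epicardial markers was 153 CPM in each WT library and 167 to 179 CPM in KO. *Wt1*, the defining epicardial factor, rose from 29.7 ± 0.395 to 37.5 ± 1.76 CPM (SD, n = 3), a log2 fold change of 0.34. *Krt19* (0.59) and *Upk3b* (0.26) were also called higher. *Upk1b* (0.32), *Tbx18* (0.12), *Msln* (0.07), *Krt8* (-0.10) and *Aldh1a2* (-0.12) were not called. Of 6 tested atrial markers, 3 were called higher, against 14.6% of all tested genes, and none lower. The called genes were *Myl4* (log2 fold change 1.10), *Myl7* (0.75) and *Nppa* (0.68). *Nr2f2* (0.06), *Stard10* (-0.09) and *Nr2f1* (-0.23) were not called. The summed level of the 6 atrial markers was 595 to 601 CPM in WT and 1006 to 1030 CPM in KO. *Nppa* rose from 372 ± 4.91 to 597 ± 8.94 CPM and *Myl4* from 142 ± 6.03 to 305 ± 9.58 CPM (SD, n = 3). The part of either marker list in the values of *Erbb3*, *Nrg1* and *Btc* was not tested. Of 8 fibroblast markers, 4 were called lower, against 15.7% of all tested genes, and none higher, against 14.6%. Their summed levels were 3946 to 3992 CPM in WT and 3677 to 3746 CPM in KO.

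*Egfr*, the receptor of HB-EGF, betacellulin and EGF, was at 9.73, 8.57 and 7.42 CPM in WT a to c and at 8.90, 7.89 and 6.39 CPM in KO a to c. The groups overlapped, and the spread within either group exceeded the difference of the means. The log2 fold change was -0.16 (standard error 0.130, 95% interval -0.42 to 0.11, adjusted p = 0.391 by edgeR's quasi-likelihood test).

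Between libraries, 6 of the 9 members showed no overlap between the groups, 3 of them lower and 3 higher in KO. Over all tested genes, 42.4% showed no overlap, 21.4% lower and 21.0% higher. *Nrg4* and *Erbb4* were the members without overlap that the edgeR test did not call.

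The balance among the receptors was expressed as the share of each in their summed CPM per kb. *Erbb2* made up 66.2% ± 0.345 of the receptor pool in WT and 65.5% ± 0.617 in KO (SD, n = 3), and the libraries overlapped (p = 0.3, two-sided exact permutation test, for which 0.1 is the smallest p that 3 against 3 libraries can give). The share of *Erbb3* was 12.5% ± 0.428 in WT and 14.9% ± 0.389 in KO, and that of *Erbb4* was 18.1% ± 0.385 in WT and 16.7% ± 0.470 in KO (SD, n = 3), with no overlap for either (p = 0.1 each, exact permutation test). The *Erbb3* share thus lay 2.45 percentage points higher and the *Erbb4* share 1.37 percentage points lower in KO hearts. The direction for *Erbb2* depended on the division by length, since its share of plain CPM was 50.7% in WT and 51.0% in KO. *Egfr* made up 3.21% ± 0.386 in WT and 2.78% ± 0.507 in KO (SD, n = 3).

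**Figure D3:**
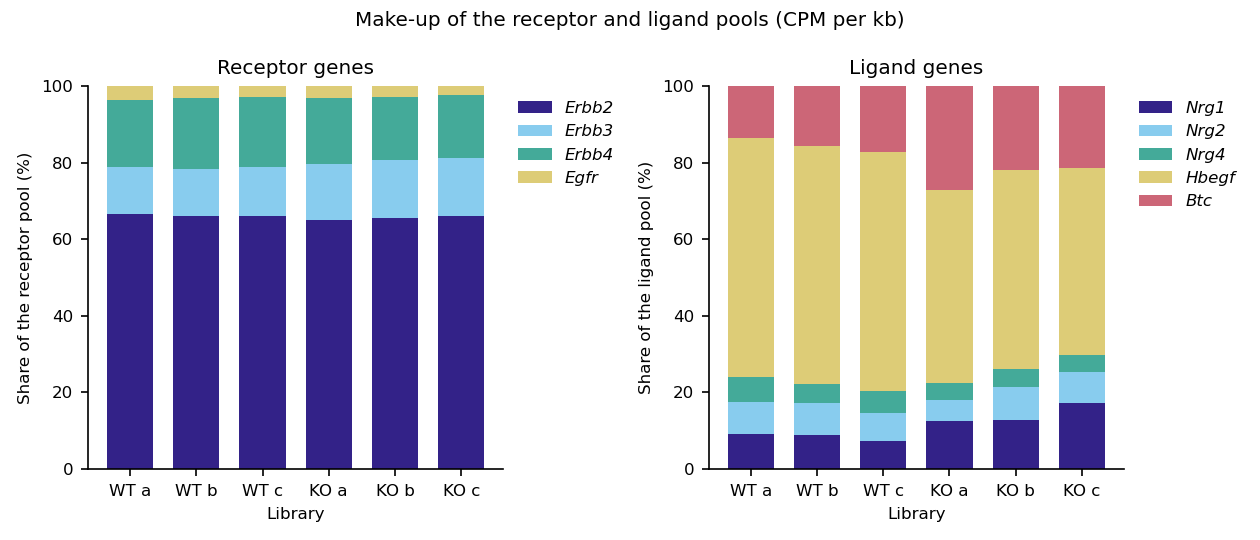
Share of each gene (vertical axis, percent) in the summed CPM per kb of the 4 receptor genes (left) and the 5 ligand genes in the table (right), with 1 stacked bar per library. *Hbegf* makes up about the same share in every WT library and less in each KO library, where *Nrg1* and *Btc* take more, and the receptor bars change little.

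Among the ligands, *Hbegf* held 62.3% ± 0.0558 of the pool in WT and 50.4% ± 1.51 in KO (SD, n = 3). *Nrg1* held 8.49% ± 0.919 in WT and 14.2% ± 2.63 in KO, and *Btc* 15.5% ± 1.90 in WT and 23.4% ± 3.24 in KO (SD, n = 3). The *Nrg1* share differed by 5.70 percentage points, and by 9.85 points in plain CPM with no division by length. For each of these 3 genes the groups did not overlap (p = 0.1 each, two-sided exact permutation test, the smallest this design allows). *Nrg4* held 5.73% ± 0.811 in WT and 4.52% ± 0.315 in KO, again with no overlap (p = 0.1, exact permutation test), and *Nrg2* held 7.93% ± 0.690 and 7.41% ± 1.77 with overlap (SD, n = 3). The shares within a pool sum to 100%, so a lower share of one gene raises the others, and none of the 9 permutation tests could reach 0.05. The summed ligand level was 5.34 ± 0.274 CPM per kb in WT and 4.87 ± 0.226 in KO, and the summed receptor level was 23.5 ± 0.366 and 24.6 ± 0.575 CPM per kb (SD, n = 3; p = 0.2 and 0.1, exact permutation test).

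The wider pathway was followed through 6 lists with 74 genes, of which 70 were tested. Of these, 17 were called lower (24.3%) and 6 higher (8.57%) in KO hearts, against 15.7% and 14.6% of all tested genes, and their median log2 fold change was -0.04. Among the proteases that release the ligands from the cell surface and the proteins that carry them, 2 of 8 were lower and 1 higher. These shares of 25.0% and 12.5% stand against the same 15.7% and 14.6% of all tested genes. *Rhbdf2*, an inactive rhomboid protein that brings the protease ADAM17 to the surface, fell from 25.1 ± 0.540 to 19.8 ± 1.36 CPM (log2 fold change -0.34, adjusted p = 7.75e-04, edgeR's quasi-likelihood test). *Adam19*, a protease linked to neuregulin release and heart septation, rose from 196 ± 1.63 to 236 ± 1.64 CPM (log2 fold change 0.27, adjusted p = 2.74e-07 by the same edgeR test; SD, n = 3).

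Of 6 receptor cofactors and chaperones, 1 was lower (16.7%, against 15.7% of all tested genes) and none higher (against 14.6%). This was *Cd9*, a tetraspanin that associates with membrane-bound HB-EGF, which fell from 23.1 ± 0.679 to 19.2 ± 0.894 CPM (SD, n = 3; log2 fold change -0.27, adjusted p = 0.00611 by edgeR's quasi-likelihood test). Of 28 tested adaptors and kinases that relay the signal, 7 were lower (25.0%) and 1 higher (3.57%), against 15.7% and 14.6% of all tested genes. Their median log2 fold change was -0.03. *Stat3*, a transcription factor that cytokine and growth factor receptors activate, fell most among them, from 152 ± 0.289 to 97.8 ± 0.551 CPM (SD, n = 3). Its log2 fold change was -0.63 (adjusted p = 2.35e-13, edgeR's quasi-likelihood test, Benjamini-Hochberg adjusted).

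Of 14 inhibitors and turnover factors of the receptors, 3 were called lower (21.4%) and 2 higher (14.3%), near the 15.7% and 14.6% of all tested genes, and 9 were not called. *Errfi1*, a feedback inhibitor that binds the kinase domain of EGFR and ErbB2, fell from 40.4 ± 1.56 to 31.9 ± 0.420 CPM (log2 fold change -0.34, adjusted p = 6.26e-05, edgeR's quasi-likelihood test; SD, n = 3). *Socs3*, a feedback inhibitor of STAT3 signalling, fell from 4.51 ± 0.326 to 3.04 ± 0.393 CPM (log2 fold change -0.57, adjusted p = 0.0102, by the same edgeR test; SD, n = 3). Both are known as rapidly induced genes, and the part of the lower early response genes in these values was not tested.

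Of 12 partners of the neuregulin signal between endocardium and myocardium, 4 were lower (33.3%) and 1 higher (8.33%). Over all tested genes, 15.7% were lower and 14.6% higher. *Adamts1*, a protease that breaks down the matrix between both layers and ends trabecular growth, fell from 475 ± 5.03 to 96.1 ± 4.79 CPM (SD, n = 3), a log2 fold change of -2.31 (adjusted p = 1.70e-26, edgeR's quasi-likelihood test). *Hand2*, a factor that acts upstream of neuregulin 1 in the endocardium and also in the myocardium, fell from 101 ± 9.27 to 56.6 ± 3.04 CPM (SD, n = 3; log2 fold change -0.83, adjusted p = 4.93e-12 by the edgeR test). *Hey2*, a Notch target of the compact myocardium, rose from 84.7 ± 4.32 to 107 ± 2.26 CPM (SD, n = 3; log2 fold change 0.33, adjusted p = 1.60e-06 by the edgeR test). *Efnb2* and *Vcan*, the other genes of this list called lower, changed less than the 1.2-fold set for naming. Their log2 fold changes were -0.19 (adjusted p = 0.00514) and -0.25 (adjusted p = 1.61e-07, edgeR's quasi-likelihood test). *Notch1*, the endocardial receptor that controls *Nrg1* during trabeculation, overlapped between the groups. The 95% interval of its log2 fold change ran from -0.08 to 0.07 (adjusted p = 0.955, edgeR's quasi-likelihood test). *Bmp10*, a trabecular growth factor, had a log2 fold change of 0.02 (adjusted p = 0.904, same edgeR test).

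**Figure D4:**
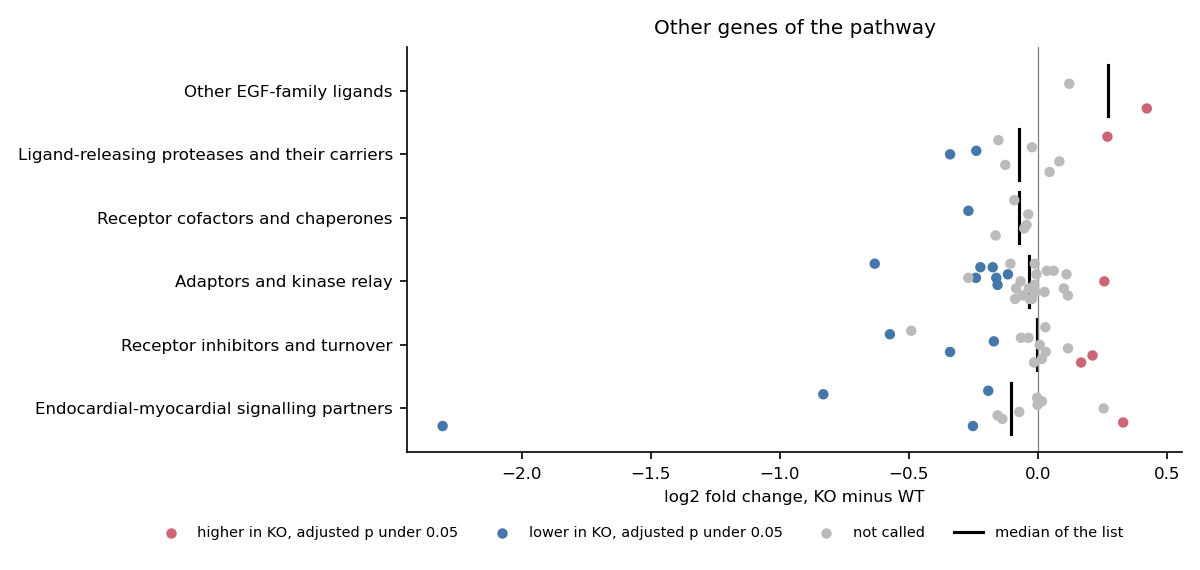
Log2 fold change of KO against WT (horizontal axis) for each tested gene of the 6 pathway lists, with points coloured by the call at an adjusted p under 0.05 and a bar at the median of each list. The medians lie near 0 in every list but the first, which holds 2 genes, while *Adamts1*, *Hand2* and *Stat3* lie farthest to the left.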

How the data were processed

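Total RNA was depleted of ribosomal RNA and sequenced with paired ends by the authors. The submitters' processing notes name cutadapt 1.18, HISAT2, StringTie and mm10, and the counting program and annotation are not given in the sources used here. For each of 6 libraries the authors deposited raw counts of 13809 gene symbols. The lowest total of a gene over the libraries was 59 counts, and genes below it have no row. Shares and percentiles over all tested genes therefore refer to the genes with a row. The results of the authors' own edgeR comparison, deposited beside them as a log2 fold change, a mean log2 CPM, a p-value and an FDR q-value, were not used.

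Testing used edgeR 4.0.16 under R 4.3.3 (filterByExpr, TMM, quasi-likelihood test, genotype as the only term, Benjamini-Hochberg adjustment over 13804 genes). A gene was called at an adjusted p under 0.05. CPM used the TMM-scaled library sizes. Pool shares were compared by a two-sided exact permutation test in Python 3.11.15 with scipy 1.17.1. P-values measure the spread between these libraries, 3 biological replicates per genotype. The same test was also run on simulated counts, and that result is not given here. Lengths and coordinates came from GENCODE M21 on GRCm38, to which 13299 symbols matched directly and 420 through an older symbol.

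All members were named. Of each pathway list, genes were named with an adjusted p under 0.05, a change of at least 1.2-fold and a mean of at least 1 CPM, at most 4 per direction, beside fixed marker genes. Neural markers are not reported here. *Notch1*, *Bmp10*, *Efnb2* and *Vcan*, and the further epicardial and atrial markers, were added after their values were seen. The members and lists were chosen with earlier results of these data known. Alternatives were RLE factors, DESeq2 1.42.0, edgeR's exact test, limma 3.58.1 voom, no filter, at least 10 counts per library, X and Y genes left out, other gene lengths, and each library left out.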

Additional observations from a re-analysis of the deposited data

How the results depend on the processing

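Over 13 alternatives, the members called lower stayed at 1 and those called higher at 2 to 3, and with each library left out these numbers ranged from 1 to 1 and from 2 to 3. Of the members' log2 fold changes under these alternatives, 113 kept their direction and their side of the threshold, and the 4 that lost the call were all of *Btc* (log2 fold change 0.46 with DESeq2, 0.34 without WT a, 0.36 without KO a, 0.47 without KO b). Pathway genes called lower ranged from 13 to 20 and higher from 4 to 6 with a library left out. Over all genes the calls ranged from 1704 to 2306 lower and from 1479 to 2013 higher with a library left out, and DESeq2 gave 1639 and 1362. The difference in the *Erbb2* share of the receptor pool was -0.65 points, -0.97 to -0.36 with a library left out, and 0.29 with no division by length. The *Erbb4* share differed by -1.62 to -1.17 points and the *Nrg1* share by 4.19 to 6.49 points with a library left out. With the longest transcript as length these differences were -1.34 and 7.13 points, and with no division by length -2.01 and 9.85 points, against -1.37 and 5.70 as reported. No paired analysis was possible because replicate numbers are missing from the column names. Depth limits *Nrg2* and *Nrg4* most, at 15 to 35 counts per library, and their log2 fold changes ranged from -0.40 to -0.04 and from -0.56 to -0.40. Sex and genotype cannot be told apart.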
